A study of Rattus norvegicus with 6 samples.

Results

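The genes described here encode the class II branch of antigen presentation in the rat. They are the classical chains RT1-Da, RT1-Db1, RT1-Ba and RT1-Bb, the nonclassical chains RT1-DMa, RT1-DMb and RT1-DOb, the invariant chain Cd74 and the transactivator Ciita. All probe sets to which the platform annotation gave 1 of these 9 symbols were taken. Probe sets were found for 8 genes, 14 probe sets of the 31099 on the array, and none carried the symbol RT1-DOb, which was not analysed here. RNA came from whole kidneys of male rats of 2 inbred strains, Dahl salt-sensitive (DS), which becomes hypertensive on a high-salt diet, and Lewis, with 3 rats and 3 arrays per strain. Both strains ate food with 8% NaCl for 8 weeks from the age of 5 weeks, so the salt load is shared, and no group on another diet was analysed here. Whether a strain difference was there before the salt load or came with it cannot be told apart in these samples.

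Class II molecules present peptides from endocytosed protein to CD4 T cells. Each consists of an alpha and a beta chain that assemble with the invariant chain. This chain fills the peptide groove and is then cut away by lysosomal proteases, after which the DM heterodimer exchanges its last fragment for other peptides. Ciita does not bind DNA itself. It acts through the RFX, CREB and NF-Y factors bound at the X and Y boxes of class II promoters. It is made constitutively by dendritic cells and B cells and is induced by interferon gamma in other cells, renal tubular epithelium among them.

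The promoter stretches below are shown because all 4 classical chains hold the Y box letters and 3 of them the X box core before it. They come from the RefSeq promoter table of the GRCr8 assembly, which held 7 of the 9 genes (RT1-DMb and Ciita were not matched), and run 5′ to 3′ along the coding strand of the gene. Capitals mark the letters CTGATTGG, a form of the Y box that contains the reversed CCAAT, and GCAAC, the core of the X box, where it precedes the Y box.
RT1-Da: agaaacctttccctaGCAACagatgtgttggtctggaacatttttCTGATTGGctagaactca
RT1-Db1: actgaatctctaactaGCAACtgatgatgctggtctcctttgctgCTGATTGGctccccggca
RT1-Ba: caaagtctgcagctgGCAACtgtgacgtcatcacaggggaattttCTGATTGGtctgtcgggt
RT1-Bb: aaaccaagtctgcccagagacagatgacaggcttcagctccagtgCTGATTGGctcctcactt

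These stretches lie at chr20:4515318-4515380 (RT1-Da, plus strand), chr20:4560228-4560290 (RT1-Db1, minus strand), chr20:4576966-4577028 (RT1-Ba, plus strand) and chr20:4604165-4604227 (RT1-Bb, minus strand). Each is upstream of the annotated gene start, with the Y box beginning at -52, -83, -46 and -64. The distance between the 2 marked elements was 25 bases in RT1-Da, 24 in RT1-Db1 and 25 in RT1-Ba. RT1-Bb holds the Y box letters with no GCAAC in the 45 bases before them. Searched on both strands, CTGATTGG was present in 3.5% of 33469 promoters of 300 bases, GCAAC in 35.1%, and GCAAC within 45 bases before CTGATTGG on the same strand in 0.179%. RT1-DMa and RT1-DOb hold the shorter GATTGG, which is part of CTGATTGG and was present in 14.8% of promoters.
RT1-DMa: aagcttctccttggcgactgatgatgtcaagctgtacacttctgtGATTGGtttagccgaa
RT1-DOb: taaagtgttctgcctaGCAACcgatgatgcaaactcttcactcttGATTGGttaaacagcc

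RT1-DMa has its stretch at chr20:4712385-4712445 and RT1-DOb at chr20:4627592-4627652, both on the minus strand. The promoter of Cd74 held neither CTGATTGG nor GATTGG. The shorter CCAAT, searched on both strands, was present in all 7 member promoters, that of Cd74 included, and in 37.5% of all promoters. A match describes letters of the reference genome. It does not show binding, and neither rat strain was sequenced here.

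Kidneys of DS rats gave higher signals for all 4 classical class II genes than kidneys of Lewis rats. RT1-Da, the alpha chain of the RT1-D molecule, was 1.77-fold higher and its partner RT1-Db1 1.56-fold higher. RT1-Ba and RT1-Bb, the chains of the RT1-B molecule, were 1.37-fold and 1.23-fold higher. The DM genes, at 1.17-fold and 1.10-fold, and Cd74, at 1.10-fold, did not pass the threshold. Of the 14 probe sets 8 passed a filter on low values, and of these 5 were higher in DS, 0 were lower and 3 did not pass at an adjusted p of 0.05 (limma, two-sided, Benjamini-Hochberg over all 15778 probe sets tested). Across all probe sets tested, 8.51% were called higher and 7.73% lower. At an unadjusted p below 0.05 the count of lower members was 0 as well, and all 8 differences were positive. In the 5 called probe sets every DS rat lay above every Lewis rat, in the normalized and in the deposited values, as in 17.6% and 28.2% of all probe sets tested. The members' median was 0.38 on the log2 scale, beside 0 for all probe sets tested.

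**Figure D1:**
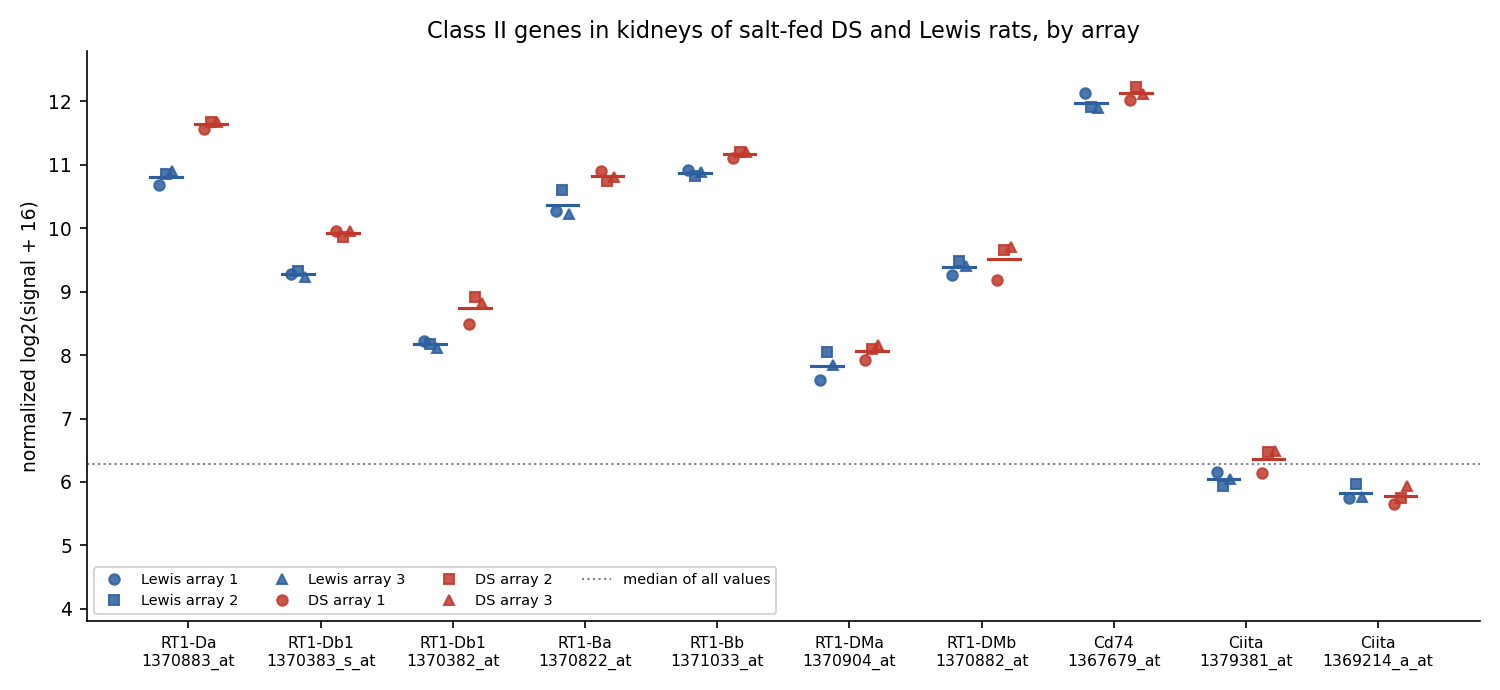
Normalized log2(signal + 16) on each array for the 8 tested class II probe sets and both Ciita probe sets; blue points are Lewis and red points DS, marker shapes give the array number and horizontal bars the strain mean (n = 3 each). The DS points of RT1-Da, RT1-Db1, RT1-Ba and RT1-Bb lie above all Lewis points, those of RT1-DMa, RT1-DMb and Cd74 overlap them, and Ciita lies near the median of all values, 6.28 (dotted).

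RT1-Da was measured by 1 probe set (1370883_at), with deposited signals of 1002.4, 2251.7 and 1734.4 in Lewis rats 1, 2 and 3 and of 3339.9, 3871.1 and 3325.2 in DS rats 1, 2 and 3. The deposited signals were not on a common level between arrays. The median signal was 39 on Lewis array 1 and ran from 53.9 to 81.5 on the other arrays. Values called signals below, and sums of them, are deposited values and carry the level of the array. All other levels and differences are on the log2(signal + 16) scale after quantile normalization, unless another setting is named. On that scale RT1-Da stood at 10.69, 10.86 and 10.90 in the Lewis rats and at 11.57, 11.68 and 11.68 in the DS rats. Every DS rat lay above every Lewis rat, before and after normalization. The difference was 0.82 (SE 0.07, n = 3 per strain, adjusted p = 8.2e-06, 95% interval 0.67 to 0.97), and 1.46% of all probe sets tested had a larger one.

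RT1-Db1, the beta chain that pairs with RT1-Da, was measured by 2 tested probe sets designed on the same transcript sequence. Probe set 1370383_s_at gave 9.28, 9.33 and 9.23 in the Lewis rats and 9.95, 9.86 and 9.95 in the DS rats. The strains were again apart, by 0.64 (SE 0.07, adjusted p = 9.2e-05). Probe set 1370382_at gave 8.22, 8.18 and 8.11 in Lewis and 8.49, 8.92 and 8.82 in DS. It differed by 0.57 (SE 0.11, adjusted p = 0.0042), with DS rat 1 the lowest of its strain but still above all Lewis rats. The suffix of the first probe set marks probes that can match more than 1 transcript, and no probe set carried the symbol of the neighbouring RT1-Db2.

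RT1-Ba, the alpha chain of RT1-B, had a bright probe set (1370822_at) at 10.28, 10.60 and 10.23 in the Lewis rats and at 10.90, 10.75 and 10.81 in the DS rats. Lewis rat 2 was the highest of its strain and still lay below all DS rats. The difference was 0.45 (SE 0.09, adjusted p = 0.0057). RT1-Bb, its beta partner, stood at 10.92, 10.82 and 10.88 in Lewis and at 11.11, 11.20 and 11.21 in DS (1371033_at). The spread within each strain was small, and the difference of 0.30 (SE 0.06, adjusted p = 0.0059) kept the strains apart. Neither call was made in the deposited values without normalization (0.83, adjusted p = 0.14 for RT1-Ba and 0.66, adjusted p = 0.24 for RT1-Bb). There the median of the probe sets tested was itself shifted by 0.41 towards DS, and 93.4% of all calls were higher in DS against 52.4% after normalization. RT1-Bb also missed the threshold (0.31, adjusted p = 0.069) when arrays were scaled to 1 median, a setting in which 65% of all calls were higher.

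The DM genes encode the editor that loads peptides onto class II molecules in the endosome. RT1-DMa stood at 7.61, 8.05 and 7.84 in Lewis and at 7.92, 8.10 and 8.16 in DS, and RT1-DMb at 9.26, 9.48 and 9.41 in Lewis and at 9.19, 9.66 and 9.70 in DS. In both genes the strain ranges overlapped. In RT1-DMb the lowest value of all belonged to DS rat 1. The differences were 0.22 (SE 0.12, adjusted p = 0.24, 95% interval -0.04 to 0.49) for RT1-DMa and 0.14 (SE 0.12, adjusted p = 0.50, interval -0.13 to 0.41) for RT1-DMb. Single arrays moved both values: RT1-DMa was at 0.11 without Lewis array 1 and at 0.33 without Lewis array 2, and RT1-DMb at 0.30 (adjusted p = 0.088) without DS array 1, at 0.07 without Lewis array 1 or DS array 2 and at 0.05 without DS array 3. An increase of the size seen in RT1-Bb lies within both intervals, so the data do not show that the DM genes stayed level.

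Cd74 encodes the invariant chain, the chaperone of every class II pair, and lies outside the MHC on another chromosome. Its deposited signals were 3028.9, 4693.4 and 3508.9 in the Lewis rats and 4637.7, 5664.2 and 4616.1 in the DS rats. After normalization it stood at 12.14, 11.92 and 11.89 in Lewis and at 12.03, 12.23 and 12.12 in DS, so that Lewis rat 1 lay inside the DS range. The difference was 0.14 (SE 0.07, adjusted p = 0.22, 95% interval -0.02 to 0.31). Without Lewis array 1, the array with the lowest median signal, it was 0.22 and passed the threshold (adjusted p = 0.025), which made 6 member probe sets higher in DS.

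Ciita was dim in both strains. The probe set 1379381_at gave signals of 35.3, 51.1 and 43.6 in Lewis and of 62.0, 95.5 and 75.9 in DS, and after normalization exceeded the median of all values on 2 of the 6 arrays, 1 short of the filter. The deposited values were apart, but the normalized ones overlapped, with 6.16, 5.94 and 6.04 in Lewis and 6.14, 6.47 and 6.49 in DS. Its difference of 0.32 did not pass when all probe sets were tested (SE 0.16, adjusted p = 0.31). The other Ciita probe set, 1369214_a_at, differed by -0.04 (SE 0.16, adjusted p = 0.93 with all probe sets tested). At these signals the arrays did not resolve whether Ciita RNA differed between the strains.

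The remaining 4 probe sets, 3 of RT1-Ba and 1 of RT1-Bb, were below the filter on all arrays. Their deposited signals ran from 1.6 to 62.5, and the same genes had bright probe sets, described above. The probe set 1392334_at of RT1-Ba had signals of 25.7, 21.2 and 21.4 in Lewis and of 50.1, 62.5 and 45.4 in DS (normalized difference 0.54). The others differed by 0.58 (1377334_at), -0.19 (1381593_x_at) and -0.42 (1371065_at). With all probe sets tested none of these 4 passed (adjusted p = 0.16 to 0.65), and 2 of them pointed towards Lewis.

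**Figure D2:**
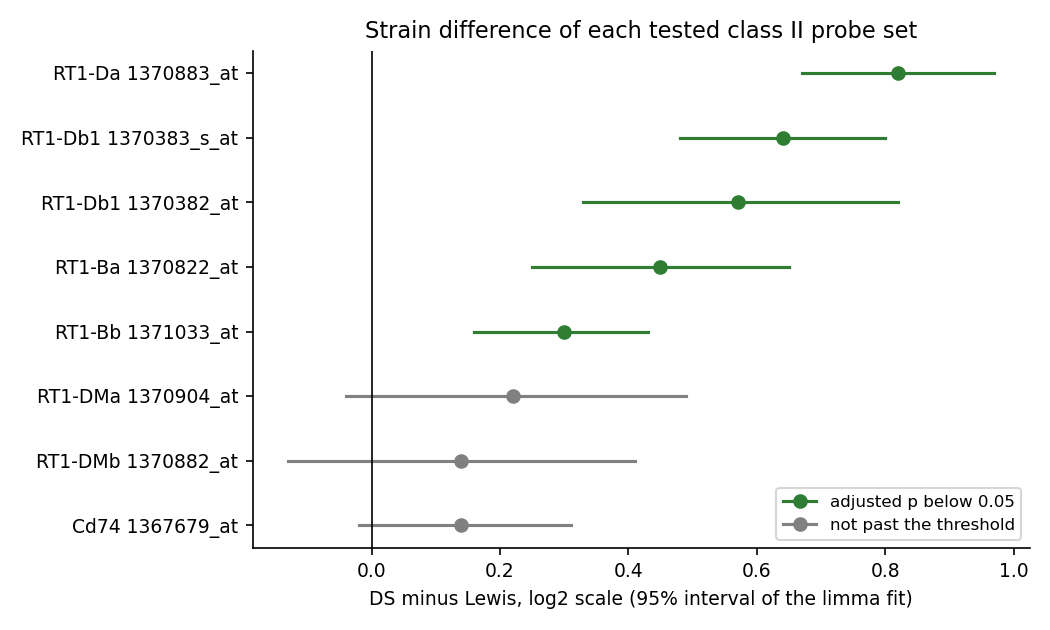
Difference between the strains (DS minus Lewis, log2 scale, horizontal axis) for each tested probe set, with the 95% interval of the limma fit; green marks an adjusted p below 0.05 and grey the others. RT1-Da is highest at 0.82, the classical chains descend to 0.30 for RT1-Bb, and the intervals of RT1-DMa, RT1-DMb and Cd74 include 0.

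The RT1 chains were then set beside Cd74 on the same array, since Cd74 lies outside the MHC, whose classical genes differ in sequence between rat strains. The log2 ratio of RT1-Da to Cd74 was -1.44, -1.05 and -0.99 in the Lewis rats and -0.46, -0.56 and -0.44 in the DS rats; only its change between strains has a meaning, since 2 probe sets are not on 1 scale. The ratio was higher in each DS rat than in any Lewis rat, by 0.68 (SE 0.13, adjusted p = 2.2e-04, limma over 15777 ratios). The ratios of RT1-Db1 were also higher, by 0.50 (SE 0.14, adjusted p = 0.011) and 0.43 (SE 0.14, adjusted p = 0.039). Those of RT1-Ba (0.31, SE 0.14, adjusted p = 0.14) and RT1-Bb (0.16, SE 0.13, adjusted p = 0.45) did not pass, and their ranges overlapped. RT1-DMa and RT1-DMb gave 0.08 (95% interval -0.24 to 0.40) and -0.01 (interval -0.30 to 0.29).

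Thus 3 of the 7 RT1 probe sets, all of the RT1-D pair, rose relative to Cd74, where 3% of all probe sets did and 10.7% fell. The RT1-Db1 calls were not stable: 1370383_s_at did not pass without DS array 1 (0.43, adjusted p = 0.078) or DS array 3 (0.48, adjusted p = 0.10), and 1370382_at did not pass without any 1 of Lewis arrays 2 and 3 and DS arrays 2 and 3 (0.39 to 0.47, adjusted p = 0.067 to 0.27). RT1-Da passed in each of these. Against the dim Ciita probe set (1379381_at), 1 RT1 probe set passed, again RT1-Da (0.50, SE 0.17, adjusted p = 0.018, beside 1.58% of all probe sets).

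**Figure D3:**
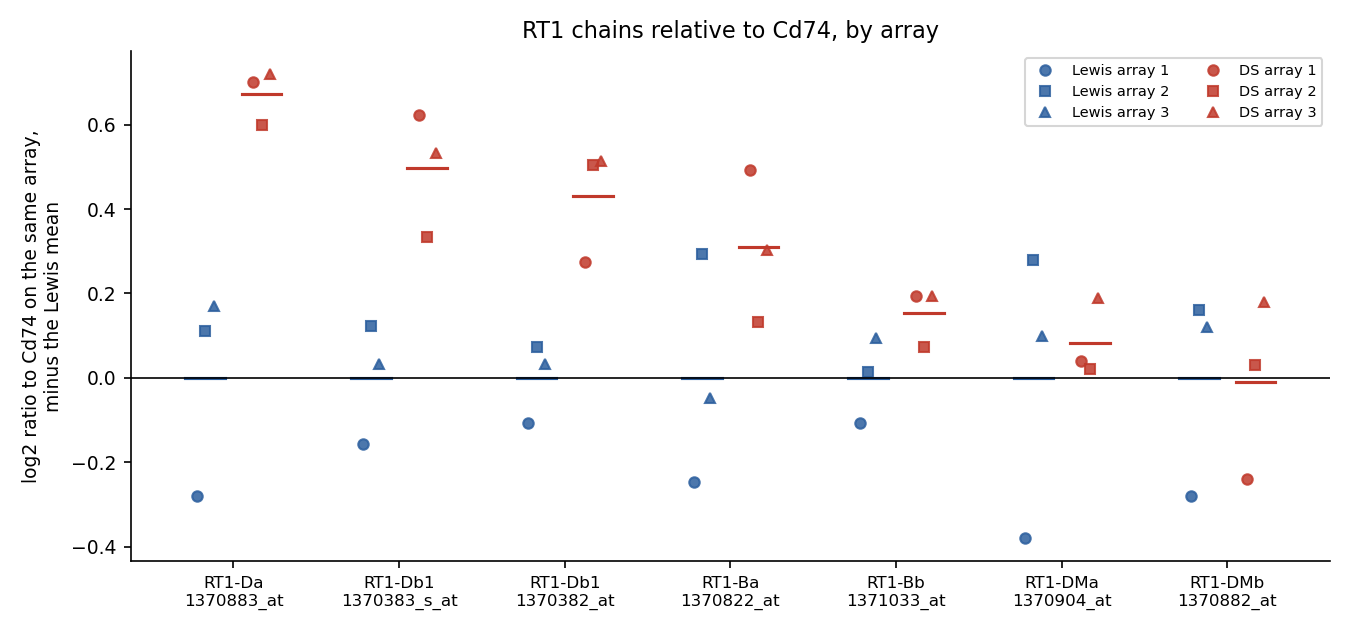
Log2 ratio of each RT1 probe set to Cd74 on the same array, minus the Lewis mean of that probe set (vertical axis), for the 3 Lewis (blue) and 3 DS (red) arrays; bars are strain means. The strains are apart for RT1-Da and both RT1-Db1 probe sets and overlap for RT1-Ba, RT1-Bb, RT1-DMa and RT1-DMb.

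Within each pair the alpha chain had the larger difference of the 2, but the intervals reached or included 0. The change of RT1-Da over RT1-Db1 was 0.18 (SE 0.09, 95% interval 0.00 to 0.36) against 1370383_s_at and 0.25 (SE 0.17, interval -0.09 to 0.58) against 1370382_at. That of RT1-Ba over RT1-Bb was 0.15 (SE 0.11, interval -0.08 to 0.39), and that of RT1-DMa over RT1-DMb was 0.09 (SE 0.23, interval -0.37 to 0.54). The strain ranges overlapped in all of these ratios.

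Probe sequences were not available here, and probes that match 1 strain's allele better than the other's were not masked. For RT1 genes a difference in RNA level and a difference in probe match cannot be told apart in these values. The part of probe match in the RT1 differences was not tested.

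Genes of the same stretch of the MHC moved unevenly. In the order of the GRCr8 gene table RT1-Da, RT1-Db1, RT1-Ba and RT1-Bb lie in a row, with RT1-Db2 between the RT1-D chains. They are followed by RT1-DOb, by Tap2, Psmb8, Tap1 and Psmb9 of the class I pathway, and then by RT1-DMb, RT1-DMa and Brd2. The differences fell from 0.82 at RT1-Da to 0.30 at RT1-Bb in this order. Psmb8 and Psmb9, subunits of the immunoproteasome, rose by 0.80 (SE 0.12, adjusted p = 6.6e-04) and 0.66 (SE 0.11, adjusted p = 0.0016), and the peptide transporter gene Tap1 by 0.70 (SE 0.12, adjusted p = 0.0022). Tap2, the other half-transporter, gave 0.26 (SE 0.12, adjusted p = 0.16), and Brd2, a chromatin reader that sits among the class II genes, gave -0.10 (SE 0.15, adjusted p = 0.68).

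**Figure D4:**
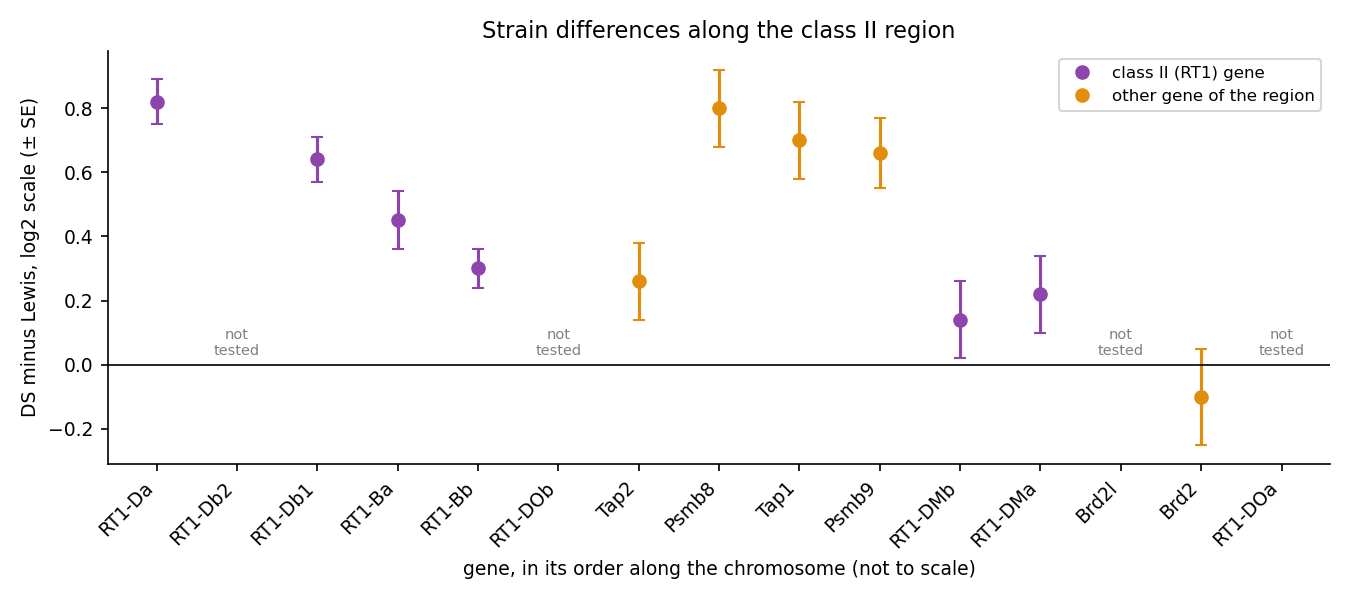
Strain difference (DS minus Lewis, log2 scale, ± SE) of the protein-coding genes from RT1-Da to RT1-DOa in their order along the chromosome, not to scale; symbols that start with LOC or RGD are left out, purple points are class II genes and orange points other genes. Psmb8, Tap1 and Psmb9 lie between 0.66 and 0.80, while the DM genes beside them lie at 0.14 and 0.22 and Brd2 at -0.10.

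The other genes of the pathway were read from lists by step, 51 genes in all, of which 39 had a tested probe set. They include 8 genes of class I presentation and its chromosomal neighbours, 7 of them tested and 3 higher in DS. Of the 39, 14 were higher in DS, 0 lower and 25 did not pass, with a median of 0.10; by gene, 9.04% of 9535 genes tested were called higher and 7.59% lower. Without any 1 array 11 to 13 were higher. The count of lower genes was 0 at an unadjusted p below 0.05 too (limma), but without Lewis array 1 the NF-Y subunit gene Nfyb passed as lower (-0.36, adjusted p = 0.046). In the deposited values 7 were higher.

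Among 10 genes of peptide processing 6 rose. Ctss, the protease that makes the last cut of the invariant chain, had signals of 282.6, 599.9 and 491.8 in the Lewis rats and 859.7, 880.3 and 764.3 in the DS rats. It rose by 0.47 (SE 0.08, adjusted p = 0.0021), with the strains apart. Ctsl, a protease with the same task in other cells, rose by 0.28 (SE 0.05, adjusted p = 0.0013), the aspartic protease gene Ctsd by 0.44 (SE 0.07, adjusted p = 6.2e-04) and Ctsz by 0.54 (SE 0.12, adjusted p = 0.01). The legumain gene Lgmn gave -0.08 (adjusted p = 0.34) and Ctsb 0.05 (adjusted p = 0.55). Ctsh gave -0.10 (adjusted p = 0.20), with the normalized value of every DS rat below every Lewis rat. Sppl2a gave 0.15 (adjusted p = 0.23), with every DS rat above. The genes that passed differ from one setting to another: 3 of the 10 passed without DS array 1 and with scaling to a common median, and 1 did in the deposited values.

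Of 10 tested transactivation genes 2 rose: Creb1, which encodes the factor of the X2 box, by 1.01 (SE 0.10, adjusted p = 3.2e-05), and the acetyltransferase gene Kat2b by 0.53 (SE 0.09, adjusted p = 0.0012). Both rest on the brightest probe set of the gene, and a dimmer one did not pass in either (Creb1 0.22, adjusted p = 0.45; Kat2b -0.10, adjusted p = 0.58). The RFX subunit genes Rfx5 and Rfxap gave 0.06 (SE 0.09, adjusted p = 0.68) and 0.10 (SE 0.11, adjusted p = 0.58), and Nfya, of the factor that binds the Y box, gave 0.01 (SE 0.12, adjusted p = 0.98). Nfyc, another subunit gene of that factor, gave -0.11 (adjusted p = 0.39), while its dimmer probe set was lower in DS (-0.35, adjusted p = 0.03).

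Of 7 tested genes of interferon gamma signalling 2 rose. Irf1, the transcription factor that links interferon gamma to Ciita, had signals of 107.7, 178.8 and 142.7 in Lewis and of 387.3, 443.0 and 318.4 in DS. It rose by 0.91 (SE 0.10, adjusted p = 4.8e-05), and all DS rats lay above all Lewis rats. The receptor gene Ifngr2 rose by 0.40 (SE 0.12, adjusted p = 0.034), but missed the threshold when Lewis array 1, Lewis array 2, DS array 2 or DS array 3 was left out. A dimmer Ifngr2 probe set did not pass (0.35, SE 0.15, adjusted p = 0.14). Ifng itself was near the bottom of the scale, with signals of 0.6 to 11.4 on all arrays, and was not tested. Jak1 (0.09) and Jak2 (0.06) did not pass.

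Among costimulators and ligands the adhesion molecule gene Icam1 rose by 0.67 (SE 0.10, adjusted p = 7.7e-04) and Cd4, the coreceptor for class II, gave 0.10 (SE 0.13, adjusted p = 0.66). Cd86, Cd40 and Cd80 were below the filter. Signals of Cd86 were 25.9 to 46.7 in Lewis and 53.1 to 81.0 in DS, and those of Cd40 were 18.1 to 39.5 and 41.4 to 56.2. The normalized ranges of these genes were apart, with DS above, as in 17.6% of tested probe sets. The share among probe sets below the filter was not counted. Cd80 had signals of 3.6 to 18.8 in Lewis and 1.3 to 8.3 in DS, and its normalized ranges overlapped (difference -0.32). Of the 3 tested genes of surface turnover 0 passed at limma's adjusted p. At an unadjusted p below 0.05 1 was higher, Cd63 (0.15, adjusted p = 0.087). Marchf8, a ubiquitin ligase gene, gave 0.18 (adjusted p = 0.22) and Cd9 gave -0.09 (SE 0.17, adjusted p = 0.77). Among 7 tested genes of class I presentation and its chromosomal neighbours, the 3 named above rose, and B2m, the light chain of class I, gave 0.05 (SE 0.05, adjusted p = 0.58).

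**Figure D5:**
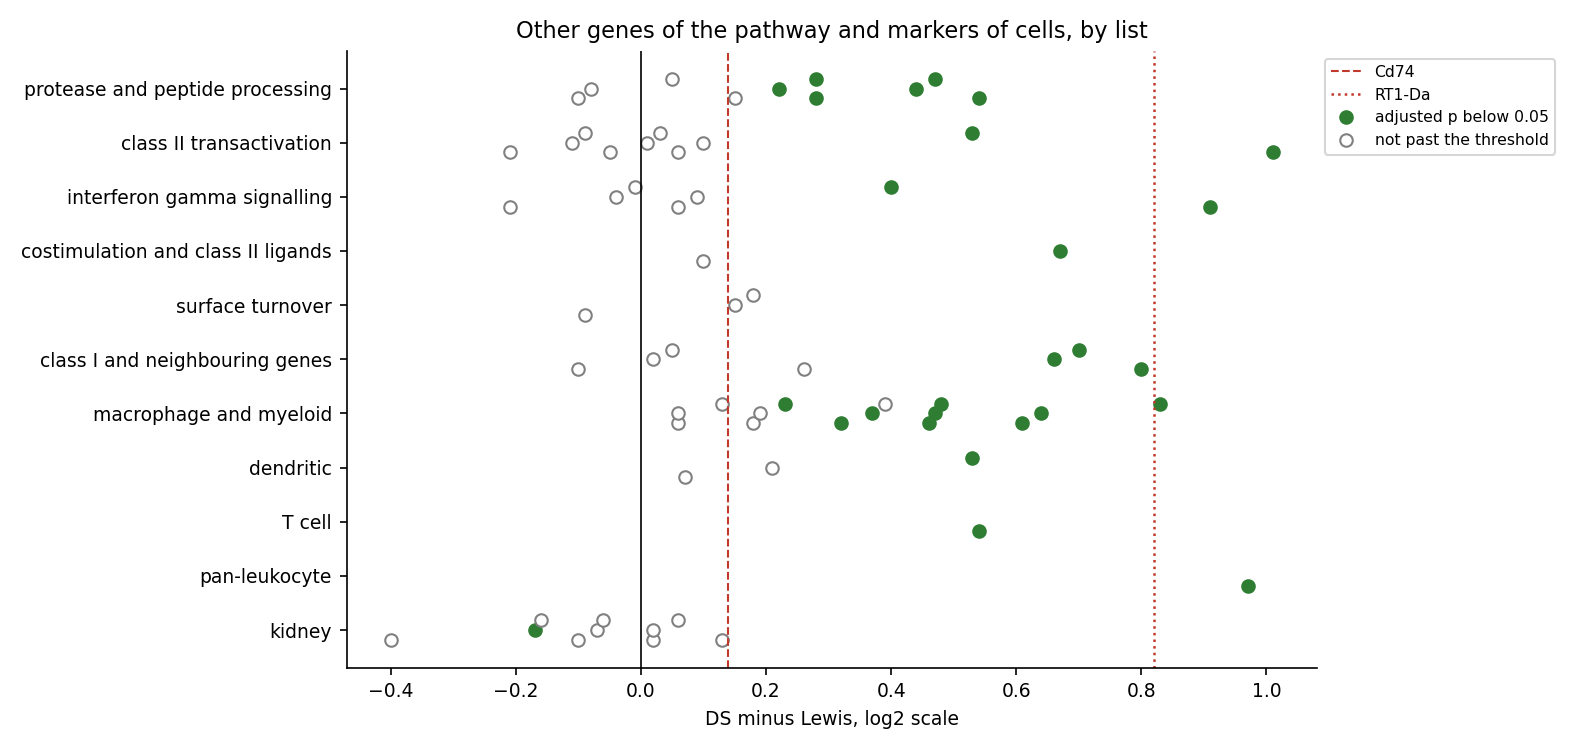
Strain difference (DS minus Lewis, log2 scale) of each tested gene by list; filled green points have an adjusted p below 0.05, open points do not, and the red lines mark Cd74 (dashed, 0.14) and RT1-Da (dotted, 0.82). Filled points lie to the right of Cd74 in the pathway and leukocyte lists, and the kidney list scatters around 0 with 1 filled point at -0.17.

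Several leukocyte markers were higher in DS, most of them myeloid, as were most of the markers tested. Of 15 tested macrophage and myeloid markers 9 rose, 0 fell and 6 did not pass, beside 9.04% of all genes called higher, with a median of 0.37; at an unadjusted p below 0.05 the count of lower markers was also 0 (limma). Those with the smallest adjusted p were Aif1, a marker of activated macrophages (0.83, SE 0.10, adjusted p = 1.2e-04), the lysosomal Cd68 (0.61, SE 0.11, adjusted p = 0.003) and Laptm5 (0.64, SE 0.13, adjusted p = 0.0048), while Adgre1, which encodes F4/80, gave 0.18 (SE 0.15, adjusted p = 0.49). The summed deposited signal of the 17 markers with a probe set was 7459 to 8571 in DS and 3577 to 6967 in Lewis. It is not corrected for the level of the array. Lyz2 alone gave 3459.6 to 3927 of it in DS and 1817.1 to 3652.2 in Lewis. None of the markers was at 0 on all arrays. The count was 4 without DS array 1, 5 without DS array 2 or 3 and 3 in the deposited values. The share of all probe sets called higher fell as well, from 8.51% to 4.52%, 4.67% and 4.27% without DS arrays 1, 2 and 3 and to 4.13% in the deposited values. In whole-kidney RNA more cells of a type and more RNA per cell cannot be told apart.

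Ptprc, which encodes CD45 and is carried by all leukocytes, increased by 0.97 (SE 0.11, adjusted p = 7.3e-05), from signals of 60.5, 104.8 and 96.6 in Lewis to 231.8, 293.1 and 221.2 in DS. Of 3 tested dendritic markers Irf8 rose by 0.53 (SE 0.13, adjusted p = 0.017; lost without Lewis array 2 or DS array 2), while the integrin gene Itgax gave 0.07 (SE 0.11, adjusted p = 0.73). Cd83, also tested, gave 0.21 (SE 0.13, adjusted p = 0.31). Clec9a, a receptor of cross-presenting dendritic cells, was below the filter, with signals of 5.9 to 19.2 in Lewis and 44.5 to 52.7 in DS. Flt3 and Batf3 were below the filter too, and their normalized ranges overlapped. Of the B cell list 5 genes had a probe set and 0 passed the filter on low values. Their summed signal was 78 to 114 in DS and 65 to 107 in Lewis. Ms4a1, which encodes CD20, had signals of 26.1 to 31.6 in DS and 13.5 to 29.4 in Lewis. The normalized ranges of Cd79b were apart, with DS above (difference 0.43). Those of Ms4a1 (0.05), Cd22 (-0.52), Cr2 (-0.06) and Blk (0.42) overlapped. Lck, the single T cell marker tested of 8, rose by 0.54 (SE 0.14, adjusted p = 0.019). It missed the threshold without DS array 2 or 3. The other T cell markers were below the filter. Among these the normalized ranges of Cd3d, Cd3g, Cd8a and Cd2 were apart, with DS above, and those of Cd3e, Cd8b and Cd5 overlapped. Across tested probe sets 17.6% had ranges apart with DS above, and the share below the filter was not counted. The summed deposited signal of the 8 was 340 to 418 in DS and 134 to 266 in Lewis. Of 2 tested markers of spleen and lymph node, the chemokine gene Ccl21 rose by 0.94 (SE 0.13, adjusted p = 3.8e-04), and Ccl19 gave 0.04 (SE 0.17, adjusted p = 0.90). Ms4a1 and Cr2 were below the filter, and their normalized ranges overlapped. The summed signal of the 4 with a probe set was 282 to 332 in DS and 96 to 239 in Lewis. Ccl21 alone gave 171.4 to 182.2 of it in DS and 40.3 to 93.5 in Lewis. Defining kidney genes were bright on all arrays: Umod, which encodes uromodulin, had signals of 7922.3 to 11328.3 and the proximal tubule gene Kap of 8755.5 to 11633.8. Of 10 tested kidney genes 0 rose and 1, Aqp1, fell (-0.17, adjusted p = 0.034), with Umod at 0.02 (SE 0.04). This Aqp1 call was lost without Lewis array 2 or 3 or DS array 2 or 3. By its dimmer probe set Aqp1 was also lower in DS (-0.32, SE 0.05, adjusted p = 0.0018). A dimmer probe set of Slc34a1, the phosphate transporter of the proximal tubule, was lower in DS (-0.62, adjusted p = 0.0022), where its bright one gave -0.06.

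Set against the mean of the 15 tested myeloid markers on the same array, a comparison added after the values were seen, RT1-Da was higher in DS by 0.46 (SE 0.08, adjusted p = 4.2e-04) and RT1-Db1 by 0.28 (SE 0.08, adjusted p = 0.0075; 1370383_s_at). The second RT1-Db1 probe set (0.21, adjusted p = 0.13), RT1-Ba (0.09, adjusted p = 0.35), RT1-Bb (-0.06, adjusted p = 0.48), RT1-DMa (-0.14, adjusted p = 0.31) and RT1-DMb (-0.22, adjusted p = 0.13) did not pass. Cd74 fell against this mean by 0.22 (SE 0.09, adjusted p = 0.046). In this ratio 2.42% of all probe sets were called higher and 65% lower, because the markers themselves rose. The part of leukocyte number in the class II differences was not tested.

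Similar patterns were sought among tested probe sets with a single gene symbol, leaving out the members and symbols that start with LOC or RGD. Patterns over the 6 arrays were compared by the root mean square distance between centred log2 values. The genes most like RT1-Da were Ccl2, a monocyte chemoattractant (distance 0.041), the peptidase gene Mme (0.050), Gucy1b1 (0.058), Asns (0.061) and Ect2 (0.061). Their differences ran from 0.77 to 0.90. Within the class II genes the distance from RT1-Da was 0.13 and 0.18 for RT1-Db1, 0.23 for RT1-Ba, 0.27 for RT1-Bb, 0.31 for RT1-DMa and 0.37 for both RT1-DMb and Cd74. The patterns most like Cd74 were those of Tmem127 (0.018), Rab12 (0.019), Kpna4 (0.029), Pcgf3 (0.031) and Entpd2 (0.032), none of which differed between the strains at the threshold (differences 0.12 to 0.16, adjusted p = 0.33 to 0.44). The distance rests mainly on the size of the strain difference and describes these arrays alone.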

How the data were processed

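The deposited table gives 1 linear signal intensity for each probe set on each array. Per the labels' protocols, GeneChip Operating Software 1.4 made these values for the authors; the target of any scaling, detection calls and probe masking are not stated in the labels. The 6 columns were matched to samples by name, and strain and replicate number came from the titles.

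Values were converted to log2(signal + 16) and quantile-normalized, so that a change is read against the bulk of the array. The 57 control probe sets were left out. Testing required a value over the median of all values in 3 or more of the 6 arrays, which left 15778 probe sets. Strains were compared with limma 3.58.1 under R 4.3.3 (moderated statistics with an intensity trend, two-sided, Benjamini-Hochberg over all probe sets tested), and the ratios to Cd74 were fitted likewise. SE and intervals are limma's. An exact permutation test of 3 against 3 could not give a p below 0.1, and the number of arrays limits the precision. Names came from the platform annotation, updated through RefSeq (20764 of 21268 annotated probe sets matched). In counts by gene the brightest tested probe set stood for a gene.

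The members, lists and settings were chosen with earlier results of these data known. All members are named; of each list, up to 4 pathway genes or 3 markers with the smallest adjusted p, and defining genes as values. Other genes given with values belong to the same lists and were picked after their values were seen. The alpha over beta ratios and the ratio to myeloid markers were also added after the values were seen. The fit was tested on simulated data. The labels do not say that equal replicate numbers mark a shared batch.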

Additional observations from a re-analysis of the deposited data

How the results depend on the processing

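Over 14 alternatives the differences of the 8 tested member probe sets kept their direction, and in 108 of 112 cases their side of the threshold. RT1-Da (0.74 to 1.14) and both RT1-Db1 probe sets (0.60 to 1.07 and 0.48 to 1.01) passed in all of them. Without normalization 3 member probe sets, 2 member genes and 7 pathway genes were higher. Leaving out 1 array gave 5 or 6 member probe sets, 4 or 5 member genes and 11 to 13 pathway genes higher, 0 or 1 pathway genes lower, and 1 to 3 RT1 probe sets higher relative to Cd74, the 1 being without DS array 3. With Ciita as the reference 1 RT1 probe set was higher. The ratio of RT1-Da to its reference passed in all 16 alternatives (0.46 to 0.76), and the RT1 ratios kept their side of the threshold in 98 of 112 cases.

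The deviations of same-numbered rats correlated at -0.05, -0.10 and 0.11, and those of differently numbered rats at -0.07 to 0.13. With 3 rats per strain these values cannot tell whether equal replicate numbers mark pairs. With the replicate block, 1 RT1 probe set was higher relative to Cd74, and no strain difference of a tested member changed its side of the threshold. Among genes of the lists Aqp1 turned to 0.07 without normalization, where the median of all probe sets was 0.41. No measure of signal over background was used here, so for the dim probe sets, Ciita among them, the values bound little. The cause of these changes was not tested.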
